A study of Mus musculus with 22 samples.

Results

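The exons described here are the skipped-exon events of ribosomal protein and translation factor genes in mouse embryonic stem (ES) cells. A skipped-exon event is an internal exon that transcripts can keep or leave out, together with its 2 flanking exons. Members are all events whose whole span lies in the mm10 span of a protein-coding gene with a symbol that matches Rpl or Rps with a digit, or starts with Eif or Eef. Rps24, Eif4a3 and the Rps6k kinases were left out. The rule found 81 events in 39 genes, with 73 distinct exons, of 10873 events listed in any of 7 libraries. Of the 81 events 71 were listed in all 7 libraries. Several events of 1 gene share an exon, a flanking exon or their reads, so events are not independent of each other. The expression "both-isoform reads" stands below for reads that fit both the inclusion and the skipping isoform, and "distinguishing reads" for reads that fit only 1 of them.

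RNA was sequenced from 14 samples, 2 biological replicates in each of 7 groups, and the authors pooled the replicates of a group into 1 summary. Each value below therefore belongs to 1 pooled library and has no replicate error. WT cells were the R1 ES line. TKO cells were an ES line labelled as a triple knockout of the DNA methyltransferases Dnmt1, Dnmt3a and Dnmt3b, which write and maintain DNA methylation, and came from another source than R1. In 4 groups of WT cells, siRNA against HP1alpha, HP1beta or HP1gamma (90 nM each), or against all 3 (60 nM each), was transfected with Lipofectamine. TKO cells were also transfected with siRNA against all 3, at 80 nM for HP1alpha and HP1beta and 120 nM for HP1gamma. HP1 proteins bind methylated histone H3 in heterochromatin. RNA was taken 48 h after transfection, and no group transfected with a control siRNA was analysed here. No feeder cells were used; the medium held leukaemia inhibitory factor and plates were coated with gelatin. WT and TKO were not transfected and were read as 50-base single ends, while every knock-down library was read as 101-base paired ends, on another sequencer and from another kit. A difference between knock-down and untransfected libraries thus cannot be told apart from transfection, kit, sequencer and read format.

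Ribosomal proteins are assembled with ribosomal RNA into the small (Rps) and large (Rpl) subunits. Initiation factors (Eif) bring the initiator tRNA, the mRNA and the small subunit together and join the subunits at the start codon. Elongation factors (Eef) then deliver aminoacyl-tRNAs and move the ribosome along. ES cells translate at a restrained rate that rises on differentiation. Many genes of ribosomal proteins and of RNA-binding proteins hold an exon whose inclusion or skipping brings in an early stop codon, so that the transcript is degraded by nonsense-mediated decay.

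Libraries held between 4677236 (triple knock-down) and 25941844 (WT) reads over all listed events, and the members took 1211912 of the reads in WT. Between 72 members (TKO triple knock-down) and 81 (WT and TKO) were listed per library. Every listed event had at least 100 reads, but the median number of distinguishing reads of an event was 48 to 100. The targeted genes were compared by the reads of their largest event, per 1000000 reads of all events (RPM). Cbx5, which encodes HP1alpha, had 113 in WT and 43.0, 56.2 and 50.5 in the 3 libraries transfected against it. Cbx1, which encodes HP1beta, had 615 in WT, 507, 551 and 1003 in the libraries transfected against it, and 1522 and 1625 where HP1alpha or HP1gamma alone was knocked down. Cbx3, which encodes HP1gamma, had 457 in WT, 32.2 to 36.1 in the libraries transfected against it and 49.6 and 52.2 where HP1alpha or HP1beta alone was knocked down. Its event was thus lower than in WT after every knock-down, whether or not the siRNA was directed at it. WT was read in another format, on which RPM depends, so this cannot be told apart from format. Among the knock-down libraries, the events of all 3 HP1 genes were lower where targeted than where not. Untargeted, Cbx5 had 110 after HP1beta and 105 after HP1gamma knock-down. Of the genes knocked out in TKO, Dnmt3a had 74.8 RPM in WT and 33.7 in TKO, Dnmt3b had 562 and 88.1, and Dnmt1 has no listed event. Reads of Dnmt3a and Dnmt3b events thus remained in TKO; which parts of the genes were deleted is not given in the labels, so these events do not check the knockout. Of 14 ES cell marker genes 5 or 6 had a listed event in each library, with 1358 (TKO triple knock-down) to 2218 (WT) RPM in sum. Of 13 markers of differentiated cells 1 to 3 did, with 331 to 442, mostly from the fibronectin gene Fn1. Pou5f1, Nanog and Sox2 have no listed event.

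The 81 events comprised 9 of large-subunit proteins in 7 genes, 7 of small-subunit proteins in 4 genes, 41 of initiation factors in 17 genes and 10 of elongation factors in 4 genes. The initiation factor 2 kinase gene Eif2ak4 held 3 events. A further 11 events in 6 genes matched the rule by symbol alone, among them lysine methyltransferases of elongation factor 1A (Eef1akmt2, Eef1aknmt), the elongation factor 2 kinase Eef2k, and Eif4enif1, which carries the cap-binding protein into the nucleus. The median member exon was 99 nucleotides (nt) long, beside 105 over all 10873 events. The 2 introns around it summed to a median of 2766 nt, beside 4996. Exon length was a multiple of 3 in 42 members (51.9%), beside 46.6% of all events. Member introns were thus the shorter in the median, and exon lengths nearly equal.

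The deposited inclusion level is the estimated fraction of transcripts that keep the exon. In WT, 26 members lay at 0.9 or above, 27 at 0.1 or below and 28 between. The median was 0.54, beside 0.68 over all 10256 events listed in WT. A set of 12 events in 10 genes stayed at 0.9 or above in every library that listed them, among them exons of Rps9, Rpl18, Eif3k, Eif4g2, Eif5 and Eif6. Another 20 events in 13 genes stayed at 0.1 or below, among them exons of Rpl22, Rpl27, Eef1b2, Eef1g, Eefsec and Eif5a. The levels of all members are shown in the map below by gene and library.

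**Figure D1:**
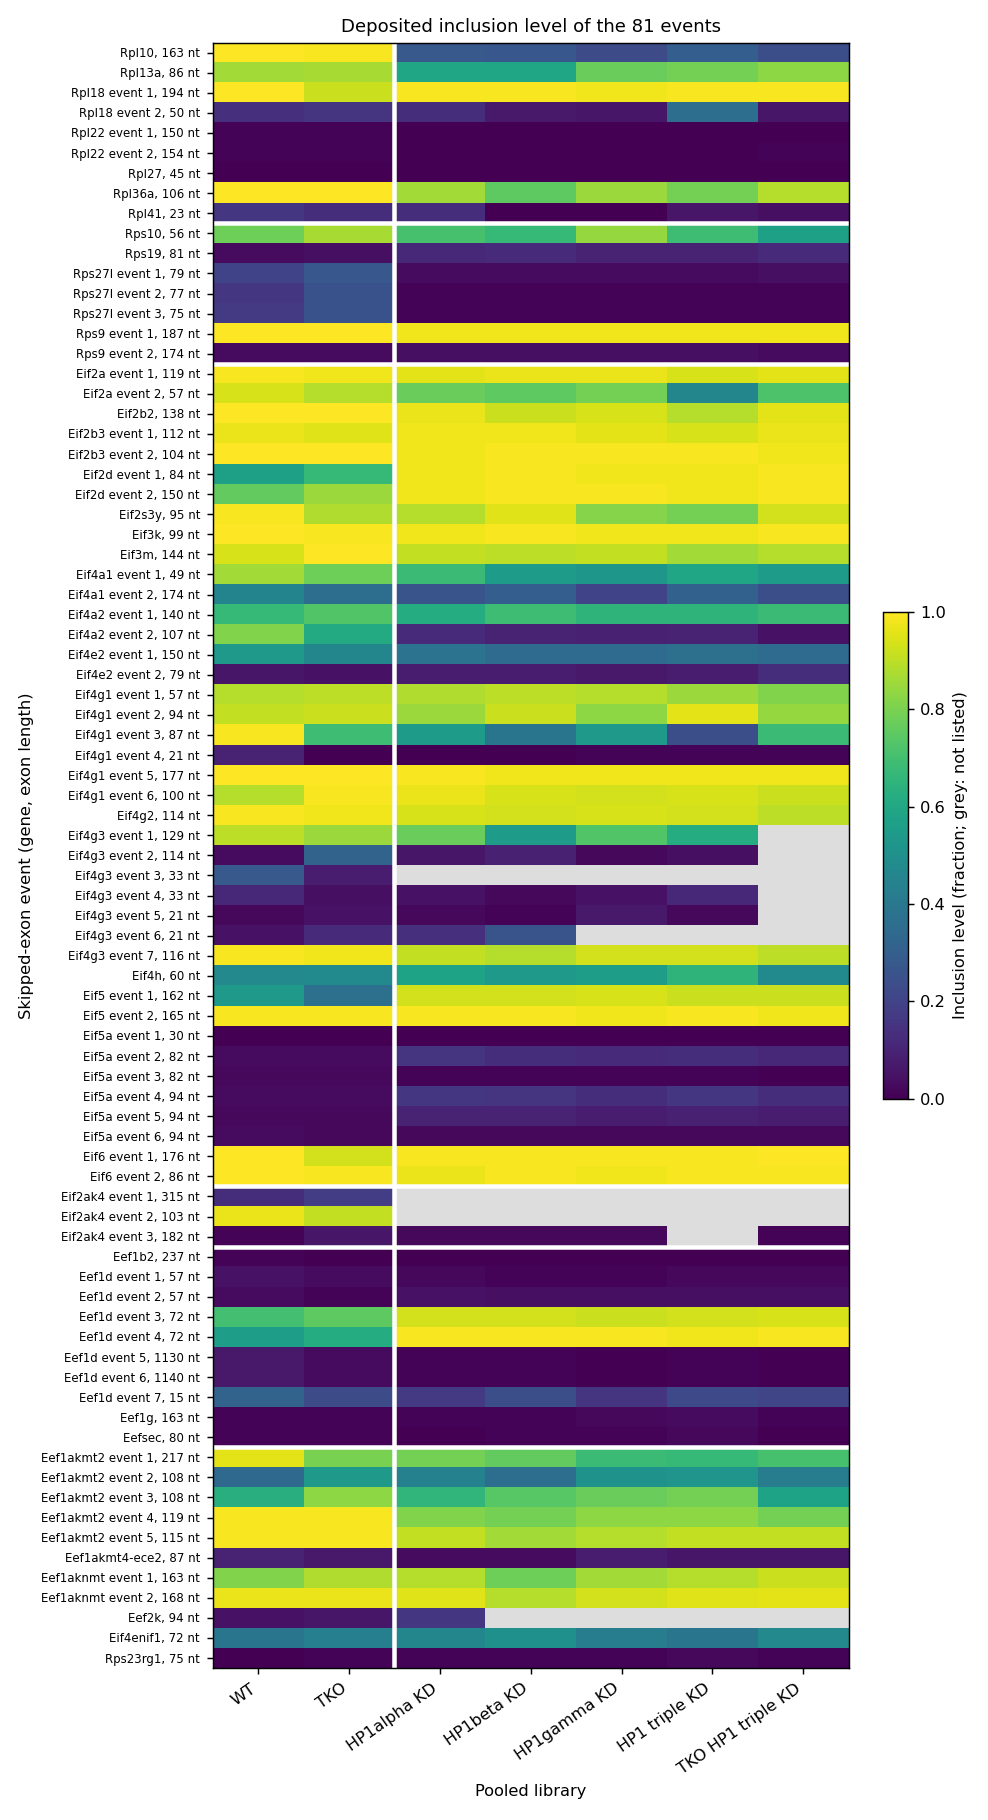
Deposited inclusion level (colour, fraction from 0 to 1) of the 81 events (lines, by role: large subunit, small subunit, initiation, Eif2ak4, elongation, other) in the 7 pooled libraries (columns); grey marks an event not listed. Most events keep 1 colour across a line, and where a line changes, it mostly does so between the 2 untransfected libraries on the left and the 5 knock-down (KD) libraries on the right.

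Distinguishing reads were compared between 2 libraries with Fisher's exact test, two-sided, with Benjamini-Hochberg adjustment over all exons tested. To be called, a member needed a level difference of at least 0.1 and an adjusted p no higher than 0.05. The question of TKO against WT is whether exon inclusion differs where the DNA methyltransferases are knocked out. The source of the line differed too and cannot be told apart from the knockout. Of 72 members tested, 1 was higher and 5 were lower in TKO, which is 8.33% of the members. Of all 7695 exons tested, 4.57% were called, 3.18% higher and 1.39% lower. The 6 calls lay in 6 genes, and the median level difference was 0.00 over the members as over all exons. The median absolute difference was 0.02 in both.

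Eif5 encodes the factor that triggers GTP hydrolysis by initiation factor 2 at the start codon. Its 162-nt exon (chromosome 12, 111542680 to 111542841, plus strand; length a multiple of 3) stood at 0.54 in WT (deposited interval 0.52 to 0.56) and 0.37 in TKO (0.35 to 0.39). The single knock-downs (HP1alpha, HP1beta and HP1gamma, in that order from here on) had 0.93, 0.93 and 0.94, with 0.92 in the triple knock-down and 0.92 in the TKO triple knock-down. The 2 untransfected libraries were low and apart from each other, and all 5 knock-down libraries were high. WT had 2436 inclusion and 18 skipping reads against 1500 and 80 in TKO (adjusted p = 8.52e-16, exact test). A neighbouring 165-nt exon of Eif5 stayed between 0.98 and 0.99 in all 7 libraries.

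Eif4a2 encodes a paralogue of the helicase that unwinds the mRNA leader. Its 107-nt exon (chromosome 16, 23112351 to 23112457, plus strand; length not a multiple of 3) stood at 0.81 in WT and 0.61 in TKO, with 4353 inclusion and 627 skipping reads against 3297 and 1170 (adjusted p = 1.11e-60, exact test). The level was 0.12, 0.10 and 0.09 in the single knock-downs in that order, 0.10 in the triple knock-down and 0.05 in the TKO triple knock-down. This exon was lower in TKO than in WT with the knock-down as without it. Under the knock-down, 88 inclusion and 193 skipping reads stood against 95 and 506 in TKO (adjusted p = 9.40e-05, exact test), but the level difference of -0.05 was below the 0.1 required. A second exon of the gene, of 140 nt, lay between 0.62 and 0.73 in all 7 libraries.

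Eif4g1 and Eif4g3 encode scaffolds of the cap-binding complex. A 21-nt exon of Eif4g1 (chromosome 16, 20674786 to 20674806, plus strand) stood at 0.10 in WT and 0.00 in TKO, with 135 inclusion and 1016 skipping reads against 0 and 443 (adjusted p = 2.48e-18, exact test). It stood between 0.00 and 0.01 in all 5 knock-down libraries, none of which had an inclusion read. WT was thus the only library in which reads for this exon were seen. An 87-nt exon of Eif4g1 (20674228 to 20674314) stood at 0.99 in WT and 0.69 in TKO, but had 0 skipping reads in both libraries and was not called (adjusted p = 1, exact test); it is named because it was the widest level difference of this comparison. A 114-nt exon of Eif4g3 (chromosome 4, 138084257 to 138084370, plus strand) stood at 0.03 in WT and 0.32 in TKO, from 3 inclusion and 47 skipping reads against 20 and 18 (adjusted p = 3.32e-05, exact test). In the 4 knock-down libraries of WT cells it stood between 0.02 and 0.09, so that TKO was the one high library, and it was not listed in the TKO triple knock-down.

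Eef1akmt2 encodes a lysine methyltransferase of elongation factor 1A, and Eif2s3y, on chromosome Y, a subunit of initiation factor 2. The 217-nt exon of Eef1akmt2 (chromosome 7, 132831360 to 132831576, minus strand) stood at 0.96 in WT and 0.80 in TKO, with 269 inclusion and 0 skipping reads against 273 and 25 (adjusted p = 2.98e-06, exact test). It stood between 0.67 and 0.79 in the 5 knock-down libraries, below both untransfected ones. The 95-nt exon of Eif2s3y (chromosome Y, 1013379 to 1013473, plus strand) stood at 0.99 in WT and 0.88 in TKO, from 364 inclusion and 0 skipping reads against 319 and 12 (adjusted p = 0.00239, exact test). It stood between 0.79 and 0.95 in the knock-down libraries, and there TKO (0.93) was not below WT (0.79). Of the 6 calls, 3 had a read class at 0 in 1 of the libraries, and calls that required a read of each class in both libraries numbered 3. The share of all exons under this requirement is not given here. The exon of Eif4g3, the 1 higher call, was no longer tested with a minimum of 50 distinguishing reads, which left 0 higher and 5 lower.

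**Figure D2:**
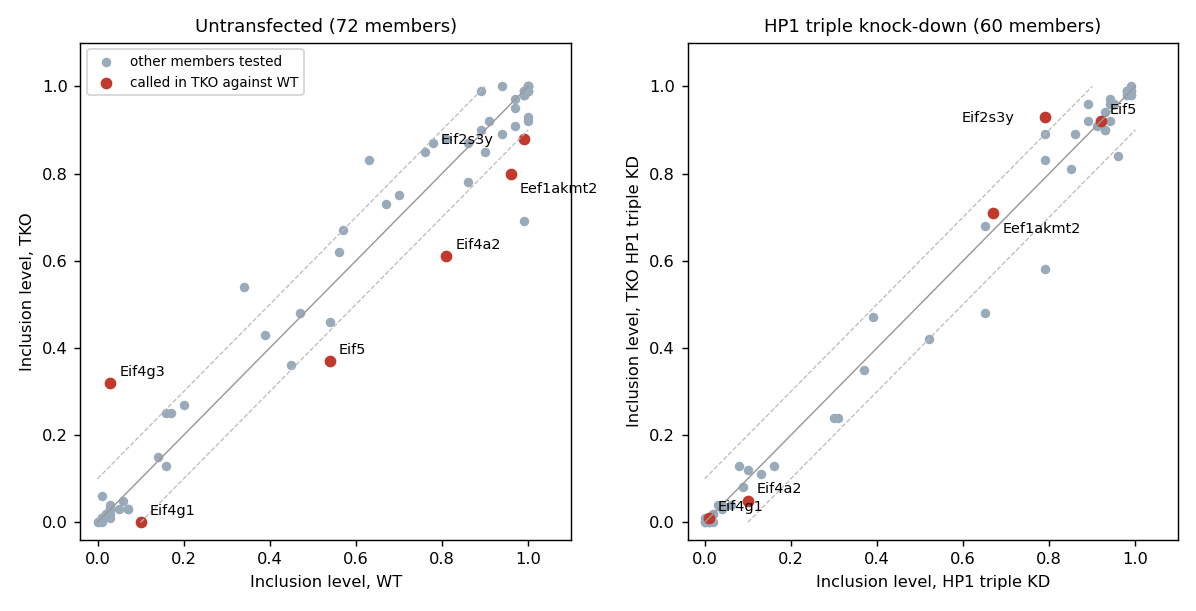
Inclusion level in TKO cells (vertical) against WT cells (horizontal) for the members tested, without transfection (left, 72 members) and after HP1 triple knock-down (right, 60 members); dashed lines mark a difference of 0.1 and red points are the members called at left. Of the 6 red points at left, 5 lie below the diagonal; at right Eif5 and Eif4g1 lie on it, and Eif4g3 is not listed.

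After triple knock-down in both cell lines, 60 members were tested between TKO and WT cells and 0 were called, beside 0.469% of 4473 exons. At an unadjusted p under 0.05 with a level difference of at least 0.1, 1 member passed, with no share of all exons given beside it. The 60-nt exon of Eif4h, a cofactor of the Eif4a helicases, had 0.65 in the WT triple knock-down and 0.48 in the TKO triple knock-down, from 204 inclusion and 52 skipping reads against 149 and 75. It was called where the expected odds ratio was set from exons of like length, under which 0.514% of all exons were called. The median absolute level difference was 0.01 over members and 0.02 over all exons. Untransfected TKO and WT share no library with this comparison. The siRNA doses also differed between the cell lines, so dose and cell line cannot be told apart here.

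Knock-down and untransfected libraries differed at more members. The 4 comparisons with WT share the WT library, so their values are given side by side. Against WT, the HP1alpha knock-down had 3 members higher and 8 lower of 67 tested, beside 1.64% and 10.2% of all exons. The HP1beta knock-down had 3 higher and 7 lower of 64, beside 1.92% and 9.91%. The HP1gamma knock-down had 2 higher and 7 lower of 62, beside 1.60% and 9.84%. The triple knock-down had 2 higher and 8 lower of 65, beside 1.83% and 9.37%. With the expected odds ratio set by exon length it had 4 higher and 7 lower, beside 2.00% and 5.16%. In TKO cells, the triple knock-down had 3 higher and 9 lower of 62 against TKO, beside 1.31% and 10.9%. Calls to either side thus made up 14.5% to 19.4% of the members tested, and lower levels were the more frequent in members as in all exons. The median level difference lay between -0.02 and -0.01 for members and between -0.04 and -0.03 for all exons.

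**Figure D3:**
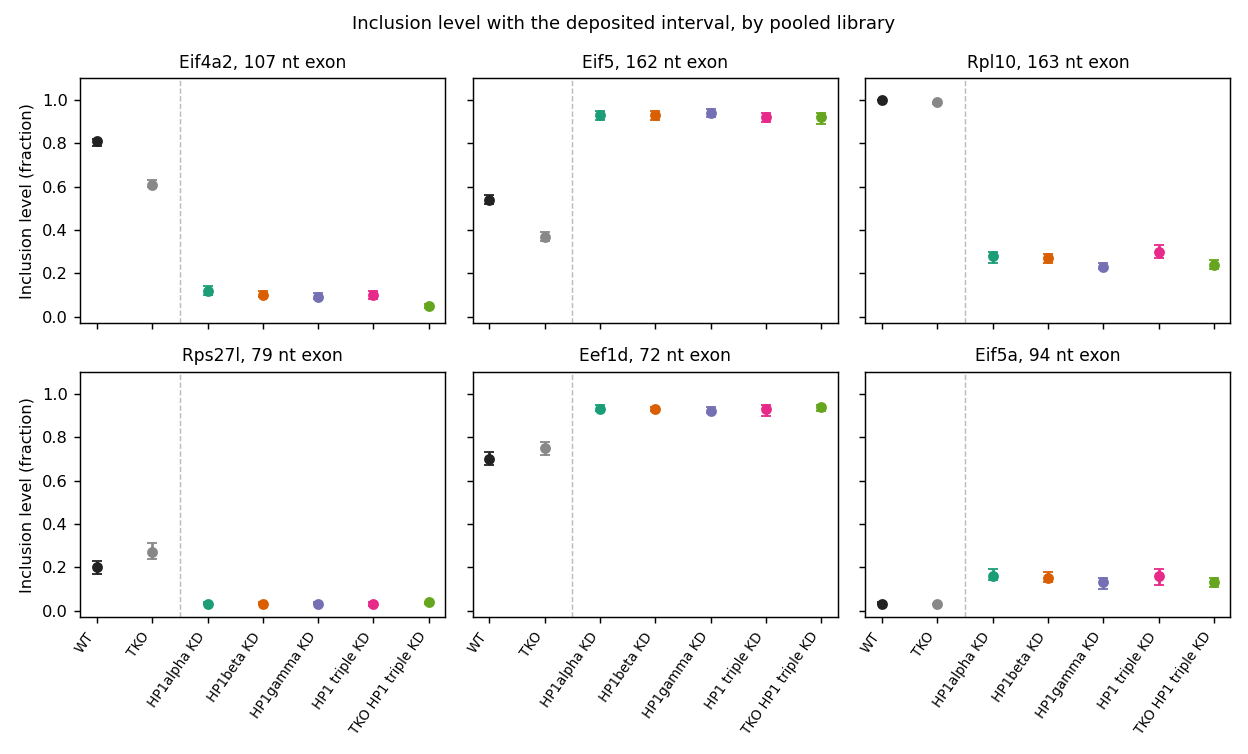
Inclusion level (points) with the interval deposited beside it (bars; its level is not stated) for 6 exons in the 7 pooled libraries; the dashed line parts untransfected from knock-down libraries. In every panel the 5 knock-down libraries lie together and apart from both WT and TKO; Eif4a2, Rpl10 and Rps27l are lower there, and Eif5, Eef1d and Eif5a higher.

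Among large-subunit proteins, Rpl10, which lies near the peptidyl transferase centre, had the widest level difference. Its 163-nt exon (chromosome X, 74272672 to 74272834, plus strand) stood at 1.00 in WT, 0.99 in TKO, 0.28, 0.27 and 0.23 in the single knock-downs, 0.30 in the triple and 0.24 in the TKO triple knock-down. Untransfected libraries were at the top of the range and all knock-down libraries near its lower end. The triple knock-down was lower than WT with adjusted p = 4.86e-07 and the TKO triple knock-down lower than TKO with 0.00349 (exact tests). The distinguishing reads themselves stayed nearly all on inclusion, at 99.98% in WT, 99.7% in TKO and 98.7% to 99.3% after knock-down. Rpl10 had 4 skipping reads in WT, 62 in TKO and 5 to 12 after knock-down. What moved with the level was the share of both-isoform reads among compatible ones, 56.4% in WT, 59.2% in TKO and 65.4% to 71.4% after knock-down. RefSeq lists 6 pseudogenes named after Rpl10, and reads from such copies cannot be told apart here.

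Rpl41 encodes the shortest ribosomal protein and had the most event reads in WT of the large-subunit members. Its 23-nt exon stood at 0.16 in WT, 0.13 in TKO, 0.13, 0.00 and 0.00 in the single knock-downs, 0.06 in the triple and 0.04 in the TKO triple knock-down. Its inclusion reads numbered 1154 and 740 in WT and TKO, 591, 1 and 0 in the single knock-downs, and 158 and 246 in the triple knock-downs. The HP1beta and HP1gamma libraries thus stood apart in a read class that all other libraries held. The triple knock-down was called lower than WT (adjusted p = 1.29e-08, exact test), yet there the share of inclusion among distinguishing reads was higher, with 158 inclusion and 4 skipping reads against 1154 and 283.

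The other large-subunit members gave 0 calls. Rpl13a, an 86-nt exon, lay at 0.86 in WT and 0.87 in TKO and between 0.59 and 0.83 in the knock-downs, where it had 49 to 225 inclusion reads against 9516 in WT. Rpl36a, a 106-nt exon, stood at 1.00 in both untransfected libraries and at 0.75 to 0.89 in the knock-downs with 0 skipping reads in any library. The 194-nt exon of Rpl18 lay between 0.98 and 1.00 in 6 libraries and at 0.92 in TKO. Exons of Rpl22 and Rpl27 stayed at 0.01 or below throughout.

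Among small-subunit proteins, Rps27l, a paralogue of Rps27 that p53 induces, was lower after every knock-down. Its events use 3 versions of 1 exon (chromosome 9, plus strand) that end at 66948717 and start at 66948639, 66948641 or 66948643, so that they are 79, 77 and 75 nt long. The 79-nt version stood at 0.20 in WT, 0.27 in TKO, 0.03 in each knock-down of WT cells and 0.04 in the TKO triple knock-down. The other 2 versions stood at 0.16 and 0.17 in WT, 0.25 in TKO and 0.01 in all 5 knock-down libraries. The triple knock-down was lower than WT with adjusted p = 2.76e-61 for the 79-nt version, and the TKO triple knock-down lower than TKO with 1.31e-165 (exact tests). Of skipping reads, WT had 158, TKO 0 and the knock-down libraries 711 to 1385. TKO, the second deepest library, was the only one with none.

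Rps9 had the most event reads of the small-subunit members, and its 187-nt exon stayed between 0.98 and 1.00. A second exon of Rps9, of 174 nt, stayed between 0.03 and 0.04 in level and was not called. Its distinguishing reads still differed, with 459 inclusion and 358 skipping reads in WT against 140 and 974 in the triple knock-down (adjusted p = 3.12e-92, exact test). The 56-nt exon of Rps10 lay between 0.57 and 0.87 in all libraries, but rested on 5 to 15 inclusion reads in the knock-downs against 3064 in WT. The 81-nt exon of Rps19, a gene mutated in Diamond-Blackfan anaemia, stood at 0.03 in WT, 0.04 in TKO and 0.10 to 0.12 after knock-down, with 0 skipping reads in all 7 libraries and no call. RefSeq lists 13 pseudogenes named after Rps19 and 4 after Rps10.

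Among initiation factors, the 107-nt exon of Eif4a2 was lower after each knock-down. The level differences from WT were -0.69, -0.71 and -0.72 for the single knock-downs and -0.71 for the triple knock-down (adjusted p from 3.09e-169 to 3.39e-93, exact tests). In TKO cells the difference was -0.56 (adjusted p = 2.26e-166, exact test). Here the distinguishing reads moved with the level: inclusion made up 87.4% of them in WT, 73.8% in TKO, 30.2% to 34.7% in the knock-downs of WT cells and 15.8% in the TKO triple knock-down.

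The 162-nt exon of Eif5 was 0.38 to 0.40 higher in level in the knock-downs than in WT, but was called only in the comparison with TKO, with a difference of 0.55 (adjusted p = 6.35e-12, exact test). With the expected odds ratio set by exon length it was also called against WT in the HP1beta and HP1gamma knock-downs (adjusted p = 0.0464 and 0.00687, exact tests). Of its distinguishing reads 99.3% supported inclusion in WT and 99.1% to 99.6% in the knock-downs. Its both-isoform reads made up 79.8% of compatible reads in WT, 85.2% in TKO and 5.39% to 6.32% after knock-down. The level of this exon thus differed between WT and knock-down libraries whose distinguishing reads had nearly the same composition, while TKO had 94.9% inclusion.

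Eif5a, the factor that carries hypusine and relieves ribosome stalling, had 6 events with 3 exons. The event with a 94-nt exon (chromosome 11, 69920341 to 69920434, minus strand) that was called stood at 0.03 in WT and TKO, 0.16, 0.15 and 0.13 in the single knock-downs, 0.16 in the triple and 0.13 in the TKO triple knock-down. Both untransfected libraries were low and all knock-down libraries higher (adjusted p = 0.00977 between WT and its triple knock-down, exact test). In TKO cells the level rose while the share of inclusion among distinguishing reads was lower, with 161 inclusion and 39 skipping reads against 270 and 10. An event with an 82-nt version of the exon and the same skipping reads was called in the HP1alpha and HP1beta knock-downs, at 0.15 and 0.13 against 0.03, and with the expected odds ratio by exon length also in the triple knock-down (0.13; adjusted p = 4.12e-05, exact test). The other 4 events of Eif5a stayed at or below 0.10. Of these, 1 with the 94-nt exon and other flanking exons was lower in the triple knock-down than in WT (0.02 and 0.03). It had 256 inclusion and 6870 skipping reads against 355 and 5438 (adjusted p = 7.51e-10, exact test). The 82-nt version with those flanking exons was lower too (0.01 and 0.02, adjusted p = 1.86e-21, exact test). Another event with the 94-nt exon was higher in level (0.09 and 0.02).

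The helicase gene Eif4a1 and the cap-binding homologue Eif4e2 were called in TKO cells and not in WT cells. For Eif4a1, the 49-nt and 174-nt versions of 1 exon stood at 0.55 and 0.24 after the triple knock-down against 0.78 and 0.36 in TKO (adjusted p = 0.000297 and 0.00277, exact tests). In WT cells these versions were lower after knock-down too, at 0.53 to 0.68 and 0.20 to 0.31 against 0.86 and 0.45. The tests there rested on 1 to 3 skipping reads after knock-down. The 49-nt version was not tested in the triple knock-down of WT cells. For Eif4e2, a 150-nt exon stood at 0.35 against 0.46 in TKO (adjusted p = 0.000193, exact test), although inclusion reads took a larger share after knock-down, with 524 to 193 against 1033 to 580. Its level was 0.54 in WT and 0.35 to 0.38 after knock-down of WT cells, and Zelen's exact test of the difference between cell lines gave adjusted p = 0.916 for Eif4e2 and 0.924 for the 174-nt version in Eif4a1. The 21-nt exon of Eif4g1 was called in the HP1alpha and HP1beta knock-downs against WT, both with a difference of -0.10 and 0 inclusion reads. Eif2s3y was called lower than WT in the HP1alpha, HP1gamma and triple knock-downs, with differences of -0.10, -0.17 and -0.20.

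Further initiation factor exons were not called in these comparisons. The 84-nt exon of Eif2d, which can deliver tRNA to the ribosome without GTP, stood at 0.57 in WT, 0.67 in TKO and 0.98 to 0.99 after knock-down, with at most 2 skipping reads in any library. The 144-nt exon of Eif3m, a subunit of initiation factor 3, stood at 0.94 in WT with 105 skipping reads and at 1.00 in TKO with 0. After knock-down it had 89 to 246 inclusion reads, against 2693 in WT, and stood between 0.86 and 0.91. In Eif3k, another subunit, a 99-nt exon stayed between 0.98 and 1.00 in all libraries. The exon of Eif4h lay between 0.47 and 0.65, and with the expected odds ratio set by exon length it was called higher in the triple knock-down (0.65) than in WT (0.47; adjusted p = 0.00126, exact test). 

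Among elongation factors, Eef1d, the exchange factor subunit that reloads elongation factor 1A with GTP, had a 72-nt exon (chromosome 15, 75900691 to 75900762, minus strand) that was higher after knock-down. It stood at 0.70 in WT, 0.75 in TKO, 0.93, 0.93 and 0.92 in the single knock-downs, 0.93 in the triple and 0.94 in the TKO triple knock-down. Untransfected and knock-down libraries did not overlap (triple knock-down: adjusted p = 1.05e-06 in WT cells, 2.00e-06 in TKO cells, exact tests). Skipping took a smaller share of the distinguishing reads after knock-down, from 1252 inclusion and 107 skipping reads in WT to 1219 and 38 in the triple knock-down. A second event with this exon, with another flanking exon, stood at 0.56 and 0.62 in WT and TKO and at 0.98 to 0.99 after knock-down, with at most 1 skipping read, and was not called. The long exon of Eef1d, of 1130 or 1140 nt, stayed at 0.07 or below. Its 15-nt exon lay between 0.15 and 0.32 with at most 5 distinguishing reads.

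Eef1b2, which had the most event reads of the elongation factor members, kept its 237-nt exon at 0.01 or below in all libraries. Eef1g, at 0.01 to 0.03, and Eefsec, the factor for selenocysteine, at 0.00 to 0.02, were as low. Among members by symbol alone, the 217-nt exon of Eef1akmt2 was called lower than WT in all 4 knock-downs, at 0.79, 0.76, 0.68 and 0.67 against 0.96. WT had 0 skipping reads, against 9 to 24. It was not called in TKO cells, where the level was 0.80 before and 0.71 after knock-down. The 108-nt exon of Eef1akmt2 lay between 0.34 and 0.54 in 1 event and between 0.58 and 0.83 in another. The latter was called lower in the TKO triple knock-down (0.58, interval 0.45 to 0.73) than in TKO (0.83, 0.70 to 0.95). These intervals overlap, and TKO had 0 skipping reads. In the knock-downs of WT cells its level was higher than in WT, at 0.66 to 0.79 against 0.63, without a call. The 72-nt exon of Eif4enif1 lay between 0.39 and 0.50. Rps23rg1, whose span also holds the pseudogene Rps23-ps2, stayed at 0.02 or below. In Eif2ak4, which senses uncharged tRNA, 2 of 3 exons were listed only in WT and TKO, and the third, of 182 nt, stayed at 0.06 or below.

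Between the 4 knock-downs of WT cells, which share platform and transfection, 66 members were tested in at least 1 of 6 pairs and 0 were called, beside 0.0169% of 5923 exons. Members with fewer than 20 distinguishing reads were not tested, such as Rpl41 in pairs with the HP1beta or HP1gamma knock-down. At an unadjusted p under 0.05 with a difference of at least 0.1, 3 members passed, with no share of all exons given beside them. Over the 59 members with at least 20 distinguishing reads in all 5 knock-down libraries, the level spanned a median of 0.02 across these libraries. In 41 of the 59 the span was at most 0.05, and Rpl13a had the widest, 0.24. Some members left out for few reads spanned more, such as the 87-nt exon of Eif4g1 (0.44) and the 57-nt exon of Eif2a (0.33). Others left out, such as Eef1g (0.02), did not. Over the same 59 members the median absolute difference was 0.01 between TKO and WT and 0.06 between the median of the knock-downs and WT. At 13 events in 11 genes the level stayed between 0.1 and 0.9 in at least 6 libraries and in all that listed them. Besides the exons of Rpl13a, Rps10, Eif4a1, Eif4a2, Eif4e2, Eif4h, Eef1d, Eef1akmt2 and Eif4enif1 given above, these were a 57-nt exon of Eif4g1 (0.81 to 0.90) and a 129-nt exon of Eif4g3 (0.55 to 0.90, listed in 6 libraries).

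Whether the triple knock-down differed from its untransfected cells by another odds ratio in TKO than in WT was examined by the exact test of Zelen. TKO cells received other siRNA doses than WT cells, so the test cannot part cell line from dose. Of 60 members tested 11 were called, in 8 genes, beside 2.69% of 4344 exons. Of the 11, 3 had level differences at least 0.1 apart: Eif5 (0.38 in WT and 0.55 in TKO cells), Eef1akmt2 (-0.29 and -0.09) and Eif2s3y (-0.20 and 0.05). The share of all exons that met both conditions is not given here. The other 8 events, in Rps27l, Eif5a, Rpl41, Eif3k and Rpl10, had level differences within 0.1 of each other in both cell lines and a read class that 1 untransfected library lacked or nearly lacked. The 3 events of Rps27l share their skipping reads, as do the 2 of Eif5a.

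The composition of the reads behind the levels differed between the 2 library formats. Both-isoform reads made up a median of 79.8% of compatible reads per member in WT and 82.0% in TKO, and 10.1% to 11.8% in the knock-down libraries. Over all events the medians were 71.4%, 71.1% and 16.7% to 18.8%. Between 12 and 14 members had 0 both-isoform reads in each knock-down library, and none had 0 in WT or TKO. In the untransfected libraries, a likelihood built from the 3 read classes, the 3 exon lengths and 50-base reads gave levels within 0.1 of the deposited ones for 73 of 81 members in WT and for 73 in TKO. The median absolute difference was 0.020 in WT and 0.025 in TKO. A deposited level in these libraries thus follows the both-isoform reads as well as the distinguishing ones, on which the exact test rests. In WT, the level and the inclusion share of distinguishing reads differed by over 0.3 in 18 of the 74 members with at least 20 such reads.

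**Figure D4:**
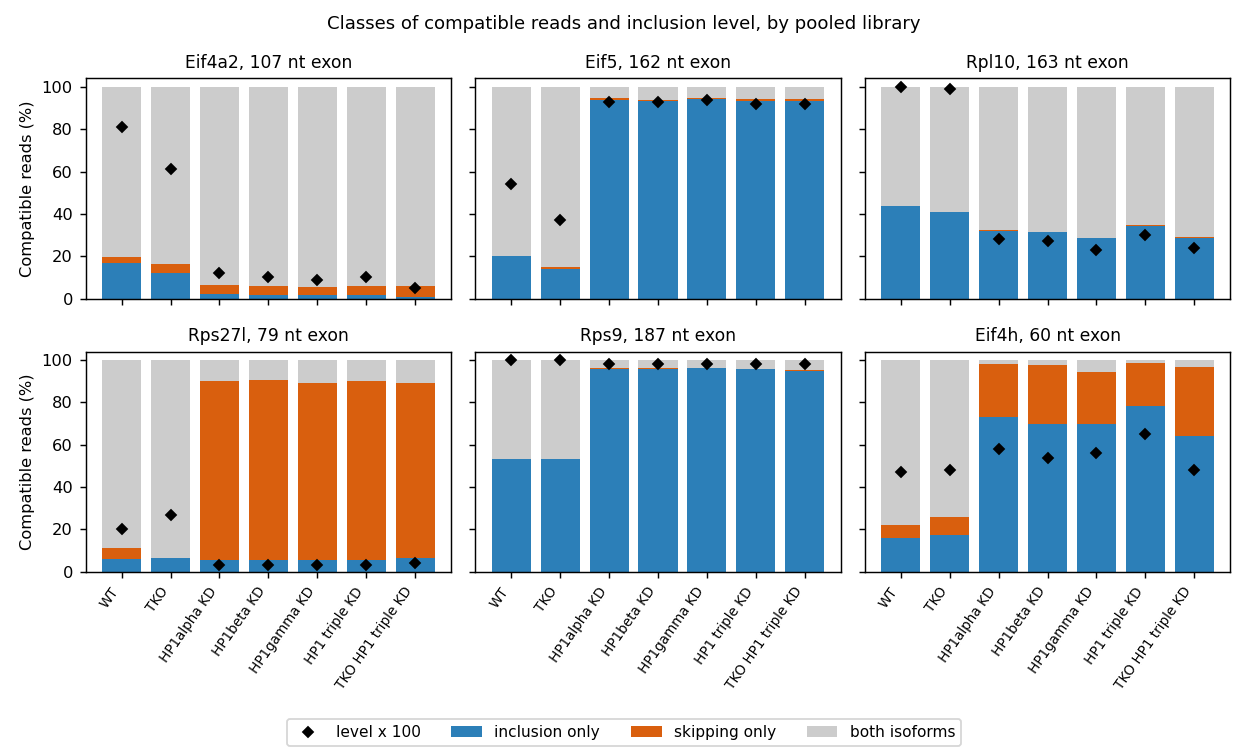
Share of compatible reads (bars, percent) that fit inclusion only, skipping only or both isoforms, and the deposited inclusion level times 100 (diamonds), for 6 exons in the 7 pooled libraries. Grey both-isoform reads fill more of the bar in WT and TKO than after knock-down (KD) for Eif5, Rps27l, Rps9 and Eif4h, but less for Rpl10 and Eif4a2; the level of Rps9 holds while that of Eif5 does not.

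Short events had fewer reads in the knock-down libraries. In RPM relative to WT, members whose 3 exons sum to at most 300 nt had a median log2 ratio of -1.48 to -0.33 over the 5 libraries, from 17 to 19 members. Longer members had 0.91 to 1.22, from 55 to 59. Rpl13a, Rps10, Rpl36a and Eif3m, given above with few reads after knock-down, show this pattern. Some longer members had fewer reads too, against the median of their group. Rpl10 had 2012 RPM in WT and 341 to 519 after knock-down, and Rpl27 1529 and 156 to 346. Levels of the short events named above carried wide intervals in the knock-downs, for example 0.43 to 0.93 for Rps10 in the HP1alpha knock-down. The interval of Rpl10 was narrower, at 0.27 to 0.33 in the triple knock-down.

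The reads of a gene's largest event, in RPM, are a rough measure of its transcript and depend on the event's length and on the library format. TKO was therefore compared with WT within each format, and since there is 1 library a group, no test was made. Of 37 member genes with an event in all 4 libraries, 1 was at least 1.5-fold higher in TKO both without and with the triple knock-down, beside 3.75% of 3118 genes. Another 2 were at least 1.5-fold lower in both, beside 3.14%. The medians of the 2 ratios were 0.91 and 1.12 over member genes and 1.05 and 0.92 over all genes. These 3 genes were chosen by their values.

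Eif4g1 had 316 RPM in WT and 206 in TKO, and 357 and 193 after triple knock-down. The ratios were 0.653 (95% counting interval 0.631 to 0.676) and 0.540 (0.503 to 0.580). Eif4g3 had 64.8 in WT and 34.4 in TKO, and 118 and 48.3 after triple knock-down, with ratios of 0.532 (0.489 to 0.577) and 0.410 (0.359 to 0.469). The largest events of both scaffold genes thus had fewer RPM in TKO than in WT without transfection. In the knock-down format, both were lower in the TKO triple knock-down than in every knock-down of WT cells. For Eif4g1 this is the event with the 87-nt exon, whose level also differed (0.99 in WT, 0.69 in TKO). Its other events varied. Inclusion reads in TKO and WT were 801 and 635 for a 100-nt, 873 and 1063 for the 57-nt and 1974 and 3414 for a 177-nt exon. A difference of the whole transcript was not tested. Eefsec had 42.7 in WT and 73.8 in TKO, and 63.7 and 158 after triple knock-down, with ratios of 1.73 (1.60 to 1.86) and 2.47 (2.18 to 2.82). The single knock-downs of WT cells had 67.3, 73.5 and 85.2 for Eefsec, and the TKO triple knock-down, of the same format, stood above them. Untransfected TKO lay among these values, but was read in another format. These intervals cover counting error only.

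**Figure D5:**
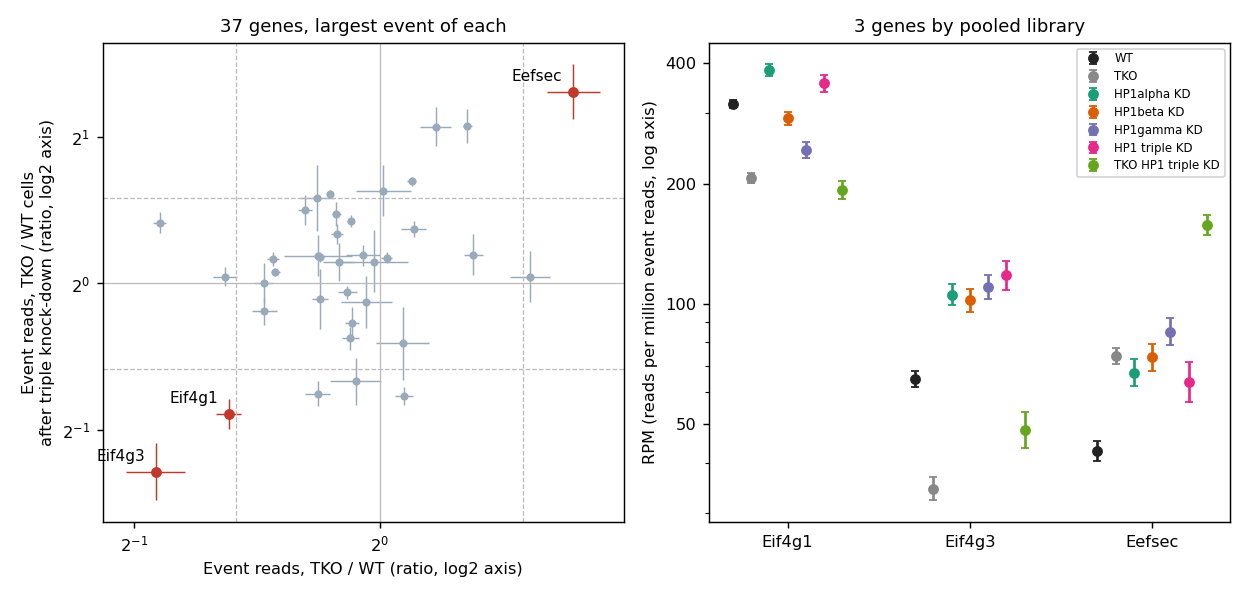
Left, ratio of event reads in TKO to WT cells after triple knock-down (vertical) against the ratio without transfection (horizontal), on log2 axes, for 37 genes with 95% counting intervals; dashed lines mark 1.5-fold. Right, reads of the largest event in RPM (log axis) for 3 genes in the 7 pooled libraries with 95% counting intervals. Eif4g1 and Eif4g3 are lowest in the 2 TKO libraries and Eefsec is highest in the TKO triple knock-down, across 2 library formats.

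The promoters of these 3 genes are shown for the CG dinucleotide, the site at which mammalian DNA is methylated. The genes were chosen because their event reads differed at least 1.5-fold in the same direction in both pairs of TKO and WT libraries. Other member genes shared a direction in both pairs but not this size, such as Eif2b3 (ratios 1.17 and 2.10) and Eif4h (0.840 and 0.594). Each sequence is the 250 bases before a RefSeq transcript start (GRCm38.p6), 5′ to 3′ on the gene's strand, in lower case with CG in capitals.
Eif4g1, chr16:20672477-20672726, plus strand: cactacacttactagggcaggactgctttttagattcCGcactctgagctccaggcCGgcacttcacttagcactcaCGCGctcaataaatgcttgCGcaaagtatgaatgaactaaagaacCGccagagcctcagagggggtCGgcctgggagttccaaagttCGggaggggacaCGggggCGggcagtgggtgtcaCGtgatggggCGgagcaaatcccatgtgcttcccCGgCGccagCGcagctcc
Eif4g3, chr4:137993205-137993454, plus strand: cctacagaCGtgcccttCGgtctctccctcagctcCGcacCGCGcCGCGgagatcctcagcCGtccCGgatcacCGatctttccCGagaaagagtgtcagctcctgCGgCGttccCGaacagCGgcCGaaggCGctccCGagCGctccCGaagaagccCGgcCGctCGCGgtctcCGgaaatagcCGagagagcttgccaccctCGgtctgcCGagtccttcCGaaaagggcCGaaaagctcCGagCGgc
Eefsec, chr6:88446540-88446789, minus strand: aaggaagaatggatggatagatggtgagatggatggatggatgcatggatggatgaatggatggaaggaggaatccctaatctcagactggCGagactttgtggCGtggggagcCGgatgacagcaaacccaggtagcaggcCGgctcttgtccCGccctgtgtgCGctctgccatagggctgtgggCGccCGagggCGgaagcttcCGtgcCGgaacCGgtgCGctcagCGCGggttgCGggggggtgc
Eif4g1 holds 15 CG, Eif4g3 32 and Eefsec 16 in this window. Windows with at least as many made up 27.3%, 4.58% and 25.4% of all 32851 promoters, whose median was 6. Over 52 promoters of the 34 member genes that matched the table, the median was 18. The genes whose largest event was lower and the gene whose largest event was higher in TKO thus all had windows above the median of all promoters. Of the 3, 2 lay below the median of the member genes. Methylation of these windows was not analysed here.

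Translation genes outside the rule were taken from a list of 67, of which 25 had 54 events. In TKO against WT, 2 of 49 events tested were higher, in the tRNA ligase gene Cars (0.61 to 0.77) and the poly(A)-binding protein gene Pabpc4 (0.79 to 0.91), and 1 was lower, in Mknk1 (0.12 to 0.01), which encodes a kinase of the cap-binding protein, beside 3.18% of all exons higher and 1.39% lower. After triple knock-down, 0 of 41 were called between the cell lines. Against WT, 5 or 6 events were higher and 4 to 7 lower of 40 to 45 tested per knock-down, beside 1.60% to 1.92% and 9.37% to 10.2% of all exons. In TKO cells, 2 were higher, in Dkc1 and Nop56, and 4 lower of 46, beside 1.31% and 10.9%. The decreases in the triple knock-down of WT cells lay in Kars, Tpt1 and Ybx1, and the increases in Dkc1, Naca, Nop56 and Rps6kb1. The 90-nt exon of Ybx1, an mRNA-packaging protein, stood at 1.00 in WT and TKO and between 0.00 and 0.01 after knock-down. Its read classes are not given here, so this level difference is not set beside the distinguishing reads, as was done for Rpl10.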

How the data were processed

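RNA of 14 samples in 7 groups was used; bisulfite and MNase samples were not analysed here. Per the submitters' processing notes, TopHat2, Bowtie2 and mm10 were used; the sources used here give no versions. Per the file headers, the deposited tables are MISO summaries of skipped exons, 1 per group with both replicates pooled by the authors. The deposited inclusion level is a fraction, with interval bounds whose level is not stated. The deposited read classes give the counts of reads that fit inclusion alone, skipping alone, both or neither.

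Genes came from the RefSeq table of GRCm38.p6. The rule's "all 7 files" was read as the union over the files. Exons with at least 20 distinguishing reads in both libraries were compared by Fisher's exact test (own code, checked against scipy 1.17.1 and tested on simulated data) with Benjamini-Hochberg adjustment; Zelen's exact test compared odds ratios. These tests compare libraries, not conditions, so p-values hold no replicate spread. Members and lists were chosen with earlier results of these data known. Named were all members called between cell lines or in Zelen's test, up to 10 called per knock-down, exons at 0.1 to 0.9 throughout, and the deepest member of each role. Alternatives were other read minimums, level differences, expected odds ratios by exon length, separate intervals, and distinct exons.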

Additional observations from a re-analysis of the deposited data

Results flagged for a closer look

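For 11 members the odds ratio of the triple knock-down against untransfected cells differed between TKO and WT cells by Zelen's exact test, adjusted over 4344 exons. In the 3 events of Rps27l, which share skipping reads, the adjusted p was 1.35e-20 for the 79-nt, 8.73e-07 for the 77-nt and 6.10e-07 for the 75-nt version of the exon; TKO had 0 skipping reads and WT 158. In the 2 events of Eif5a it was 3.75e-08 for the 94-nt and 1.21e-07 for the 82-nt exon, with 10 skipping reads in TKO and 195 in WT. Rpl41 had 1.21e-07, with 1 skipping read in TKO and 283 in WT.

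The 217-nt exon of Eef1akmt2 had an adjusted p of 0.000333 and Eif3k 0.00180 (exact tests); both lacked skipping reads in WT. Eif5 had 0.00227 for its 162-nt exon, Eif2s3y 0.00550 and Rpl10 0.00569 in the same exact test. In Eif5 the level rose by 0.38 in WT and by 0.55 in TKO cells and ended at 0.92 in both. For Rpl10, TKO had 62 skipping reads and WT 4. The untransfected libraries are the ones that differ in these read classes, and whether the difference would recur in other libraries was not tested.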

How the results depend on the processing

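No paired analysis was possible because the authors pooled both replicates of each group, and for the same reason no replicate could be left out. With a level difference of at least 0.2 the members called numbered 2 for TKO against WT, 3, 4 and 4 for the HP1alpha, HP1beta and HP1gamma knock-downs and 5 for the triple knock-down. With at least 1 read of each class in both libraries, chosen after seeing the data, TKO against WT gave 3. With the expected odds ratio set by exon length, TKO against WT cells after triple knock-down gave 1, Eif4h. In Zelen's test 3 members had level differences at least 0.1 apart. Shares of all exons at a level difference of 0.2, or with a read of each class, are not given here. The other alternatives kept these counts within 1.5 times. Of 58 calls of named members, 6 were lost with the expected odds ratio by exon length, 2 where intervals had to be apart and 0 with a minimum of 10 reads. With a minimum of 50, 57 were kept and 1, Eif4g3, was no longer tested, so that TKO against WT gave 0 higher and 5 lower. The calls lost by length were Eif2s3y (HP1alpha), Rpl41 (triple) and, in TKO cells, Eif5a, Eif4e2, Rpl10 and the 174-nt exon of Eif4a1. Those lost where intervals had to be apart were Eif2s3y (HP1alpha) and, in TKO cells, the 108-nt exon of Eef1akmt2. Besides the Eif4h call above, calls gained by length, against WT, were Eif5 (HP1beta and HP1gamma), Eif4h (triple) and the 82-nt exon of Eif5a (triple). Few distinguishing reads limit exons of short events in the knock-down libraries.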
